A study of Mus musculus with 2 samples.

Results

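The imprinted Dlk1-Meg3 locus lies on mouse chromosome 12, and 5 of its genes were followed here: Dlk1, Meg3, Rtl1, Rian and Mirg. They were chosen by gene name, and all 5 were found among the 55536 annotated genes. The data are total RNA-seq of left cerebral cortex from female B6CASTF1/J mice, a hybrid of C57BL/6J and CAST/EiJ, aged 18 to 20 months. There was 1 group of 2 libraries, called replicate 1 and replicate 2 in the labels, each made from 300 ng of RNA with spike-ins, and no treatment or contrast. Both biosamples carry the same donor entry, so separate animals are not certain and the spread between the libraries may be technical. Replicate 1 held 32357983 expected counts on genes and replicate 2 held 24798683. At these depths 3 counts, the limit that a count of 0 allows, equal 0.0927 and 0.121 CPM (counts scaled to library size); this covers counting error alone. TPM, the unit of all levels, divides counts by transcript length before it scales them to the library, and each mean is given with the SD of the 2 libraries (n = 2). Of the marker genes, all 4 of cortical excitatory neurons, all 3 of inhibitory neurons and all 3 of astrocytes reached 1 TPM in both libraries. None of 5 pituitary and none of 5 hypothalamus markers did, with Gh, Prl, Oxt and Hcrt at 0 counts. Values estimated without alignment put Oxt at 0.979 and 1.89 TPM. Of 3 markers each, 2 of choroid plexus, 2 of leptomeninges, 2 of pericytes and 1 of midbrain dopamine neurons reached 1 TPM in both libraries.

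Imprinted genes are expressed from the chromosome of only one parent. At this locus Dlk1 and Rtl1 are read from the paternal chromosome, and the long noncoding RNAs Meg3, Rian and Mirg from the maternal chromosome. Meg3, Rian and Mirg lie in the same direction, and small RNAs, miRNAs and C/D box snoRNAs, are cut from the transcripts of this stretch. Brain is among the tissues in which the noncoding genes are known to be abundant. The values used here do not separate the alleles of the hybrid, so parental origin was not measured.

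The start regions of the most abundant and of a scarce member are shown because the levels of Meg3 and Dlk1 stood far apart. The sequences are RefSeq windows on GRCm38.p6, from 250 bases before to 50 bases after the start, and capitals mark matches, on either strand, to TATAAA, to TGACGTCA and its core TGACG, to the CCAAT box and to GGGCGG. The first is the upstream Meg3 start (chr12:109540746-109541045, plus strand).
Meg3, upstream start: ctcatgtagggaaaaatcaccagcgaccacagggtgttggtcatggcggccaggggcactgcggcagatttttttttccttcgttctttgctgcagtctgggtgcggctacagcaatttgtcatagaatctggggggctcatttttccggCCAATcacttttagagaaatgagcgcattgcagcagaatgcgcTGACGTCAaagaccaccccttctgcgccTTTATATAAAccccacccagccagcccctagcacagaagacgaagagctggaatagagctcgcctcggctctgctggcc
It holds CCAAT 100 bases before the start, TGACGTCA 57 bases before it (which contains TGACG on both strands) and overlapping TATAAA matches on the 2 strands 29 and 25 bases before it. RefSeq lists another Meg3 start (chr12:109545148-109545447, plus strand), which falls where the isoform Meg3-209 begins.
Meg3, downstream start: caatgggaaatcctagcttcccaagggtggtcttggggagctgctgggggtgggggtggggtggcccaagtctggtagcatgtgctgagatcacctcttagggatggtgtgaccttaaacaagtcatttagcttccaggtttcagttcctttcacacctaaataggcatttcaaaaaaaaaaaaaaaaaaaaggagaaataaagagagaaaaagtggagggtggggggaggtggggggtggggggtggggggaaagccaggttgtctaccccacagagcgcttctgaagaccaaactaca
The downstream window holds none of the 5 motifs and 1 CpG, against 13 CpG in the upstream window. Dlk1 has its start in the next window (chr12:109452573-109452872, plus strand).
Dlk1: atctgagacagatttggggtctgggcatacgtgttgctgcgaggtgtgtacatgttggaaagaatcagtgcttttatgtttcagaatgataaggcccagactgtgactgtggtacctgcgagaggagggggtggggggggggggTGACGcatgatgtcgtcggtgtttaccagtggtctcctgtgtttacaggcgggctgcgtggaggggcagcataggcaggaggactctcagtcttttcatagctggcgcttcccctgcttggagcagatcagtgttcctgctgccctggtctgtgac
Of these motifs it holds TGACG alone, 106 bases before the start, and 9 CpG. Among 32851 RefSeq start windows of the same length, 13.6% hold TATAAA, 1.79% TGACGTCA, 20.8% TGACG, 37.4% CCAAT and 35.7% GGGCGG, and the median number of CpG is 7. A match describes letters, not binding. The windows of Rian, with no match, and of Mirg, with CCAAT 184 bases before the start, are not printed.

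Rtl1 is read from the minus strand, and 6 miRNA hairpins lie opposite it on the plus strand, which is the strand of Meg3 and Rian. All 11 mature miRNAs that RefSeq lists for these hairpins had exactly 1 perfectly complementary site in the Rtl1-201 transcript of 6358 bases, and all 11 sites lay in its coding part (bases 148 to 5379). Such pairing follows from the antisense position. Examples are printed 5′ to 3′, the miRNA with its seed (bases 2 to 8) in capitals and the Rtl1 site with the bases facing the seed in capitals. miR-127-3p lies at chr12:109592888-109592909, miR-433-3p at chr12:109591781-109591802, miR-431-5p at chr12:109590459-109590479 and miR-136-5p at chr12:109595331-109595352.
miR-127-3p: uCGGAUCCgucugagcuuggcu
its Rtl1 site: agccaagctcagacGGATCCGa
miR-433-3p: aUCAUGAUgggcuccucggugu
its Rtl1 site: acaccgaggagcccATCATGAt
miR-431-5p: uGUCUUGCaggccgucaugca
its Rtl1 site: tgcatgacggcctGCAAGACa
miR-136-5p: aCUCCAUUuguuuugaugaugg
its Rtl1 site: ccatcatcaaaacaAATGGAGt
The remaining hairpins of this group are miR-434 and miR-432.

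The paternally expressed coding members were scarce. Dlk1, a membrane protein with EGF-like repeats related to the Notch ligands (chr12:109452823-109463336, plus strand, ENSMUSG00000040856.17), had 127 counts in replicate 1 and 72 in replicate 2. In TPM this was 2.02 and 1.27, with a mean of 1.65 ± 0.530 TPM (SD, n = 2). The libraries thus differed, with replicate 2 the lower, and the posterior mean TPM values were closer, 2.53 and 2.05. Their deposited intervals overlapped, 1.92 to 3.23 and 1.37 to 2.81 TPM. The pituitary markers, of a gland known for high Dlk1, summed to 0.71 and 1.01 TPM, all of it Pomc. Rtl1, a protein derived from a retrotransposon gag-pol gene and known for its role in placenta and muscle (chr12:109589193-109600330, minus strand, ENSMUSG00000085925.3), had 15 and 11 counts. These were 0.11 and 0.10 TPM. Both libraries lay above the 3 counts that a 0 allows, and far below the 1 TPM used here to call a gene expressed.

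The maternally expressed noncoding members stood at the other end of the scale. Meg3, a nuclear long noncoding RNA (chr12:109541001-109571726, plus strand, ENSMUSG00000021268.17), had 75991 counts in replicate 1 and 101434 in replicate 2. These were 0.235% (95% Wilson interval 0.233 to 0.237) and 0.409% (0.407 to 0.412) of all counts on genes. The level was 931 and 1532 TPM, with a mean of 1231 ± 425 TPM (SD, n = 2). The library values do not come near each other, and in bulk tissue more cells of a type and more RNA per cell cannot be told apart. Meg3 ranked 58th of all genes by TPM in replicate 1 and 28th in replicate 2. Among long noncoding genes it was the third by expected counts in both libraries. The long noncoding genes set beside it by mean TPM were Gm26917 (10941 ± 304), Malat1 (5564 ± 1347), Rmrp (3513 ± 447) and Gm42418 (1911 ± 63.3) above it and C230004F18Rik (966 ± 6.53) below it. Of these, C230004F18Rik had the higher value in replicate 1, 971 against 931 TPM, so that its order with Meg3 was not the same in both libraries. In the alignment-free tables C230004F18Rik lay above Meg3 in both, at 1722 and 1788 TPM against 854 and 1489, and Rmrp was listed at 0 in both. Rmrp has another entry, of class ribozyme and so not ranked here, with 2284 and 1869 TPM in the gene tables.

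Rian, the host gene of a cluster of brain snoRNAs (chr12:109603940-109661716, plus strand, ENSMUSG00000097451.10), had 15619 and 15655 counts. It stood at 479 and 648 TPM, with a mean of 564 ± 120 TPM (SD, n = 2). Mirg, the host gene of miRNAs at the distal end (chr12:109729764-109749460, plus strand, ENSMUSG00000097391.8), had 1863 and 2012 counts. Its values of 50.9 and 75.1 TPM gave a mean of 63.0 ± 17.1 TPM (SD, n = 2). The order by TPM was therefore Meg3, Rian, Mirg, Dlk1 and Rtl1 in both gene tables, with no overlap between the 2 values of any neighbours in that order. In the alignment-free tables, for which reads and an index were the input, Meg3 and Rian changed places in replicate 1. Meg3 stood at 854 and 1489 TPM there, and Rian at 863 and 1190 TPM. The Meg3 to Rian ratio of TPM was 1.94 and 2.36 in the gene tables but 0.990 and 1.25 in the alignment-free tables. The median gene at 1 TPM or more had 1.61 times its gene-table TPM in the alignment-free tables; Rian had 1.82 times, Mirg 1.62 times, Dlk1 1.56 times and Meg3 0.951 times.

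**Figure D1:**
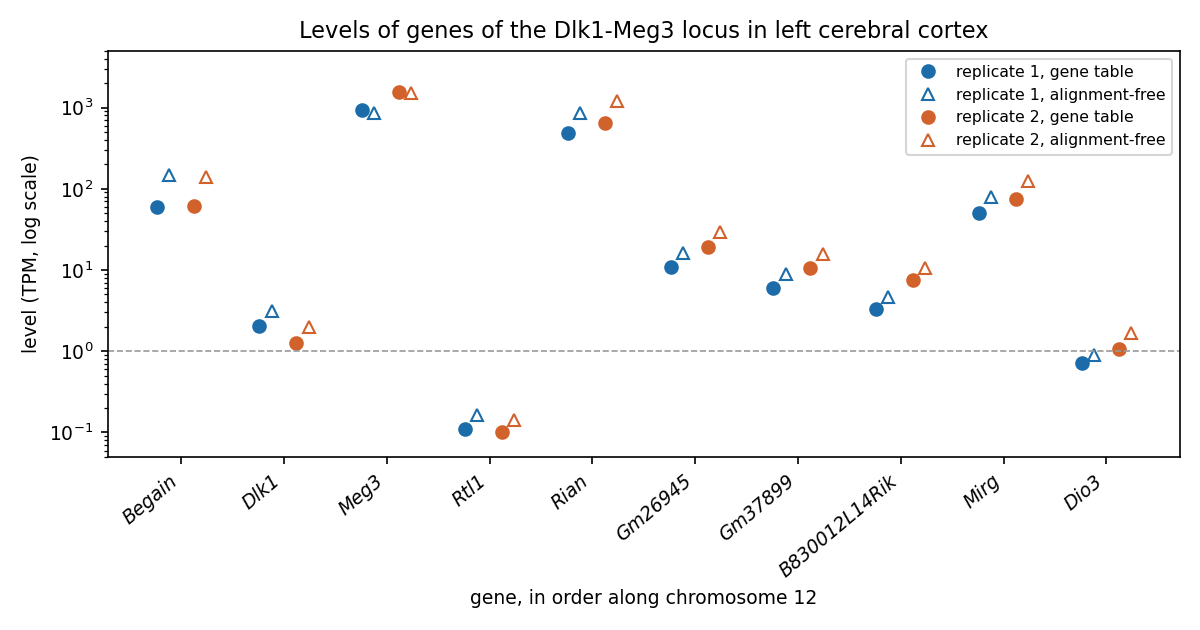
Level of each gene in TPM (log axis) in order along chromosome 12, with filled circles for the gene tables, open triangles for the alignment-free tables, and colour for the library. Each symbol is 1 library; Meg3 and Rian lie near 1000 TPM, Rtl1 near 0.1 TPM, and the dashed line marks 1 TPM.

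The abundance of the noncoding members did not extend over the whole neighbourhood. GENCODE M21 places 122 genes between Begain and Dio3, of which 26 are neither miRNA, snoRNA nor other small RNA genes. Of these 26, 8 reached 1 TPM in both libraries, 4 of them members (Dlk1, Meg3, Rian and Mirg). This was near the background, since 26.7% of all 55536 genes did. Another 9 had 0 counts. Over all genes 0 was common as well: genes at 0 TPM shared rank 25834 in replicate 1 and 25775 in replicate 2. Begain, a synaptic protein gene upstream of Dlk1, had 60.2 and 61.3 TPM. Dio3, the thyroid hormone deiodinase at the distal edge, had 29 and 32 counts, or 0.72 and 1.06 TPM. Between them, Gm26945, on the strand of Rian and inside it, had 10.9 and 19.4 TPM. Gm37899 had 6.08 and 10.7 TPM, and B830012L14Rik had 3.35 and 7.63 TPM; both lie between Rian and Mirg on the plus strand. The only gene annotated opposite the last exon of Meg3, Gm26906, had 1 count in each library. Over 208 kb from Meg3 to Mirg, 6 long noncoding or TEC genes (TEC is a GENCODE class of loci not yet tested by experiment) lie on the plus strand. Together they held 95458 counts in replicate 1 and 121844 in replicate 2, which were 0.295% and 0.491% of the counts on genes. Meg3 alone gave 79.6% and 83.2% of them.

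**Figure D2:**
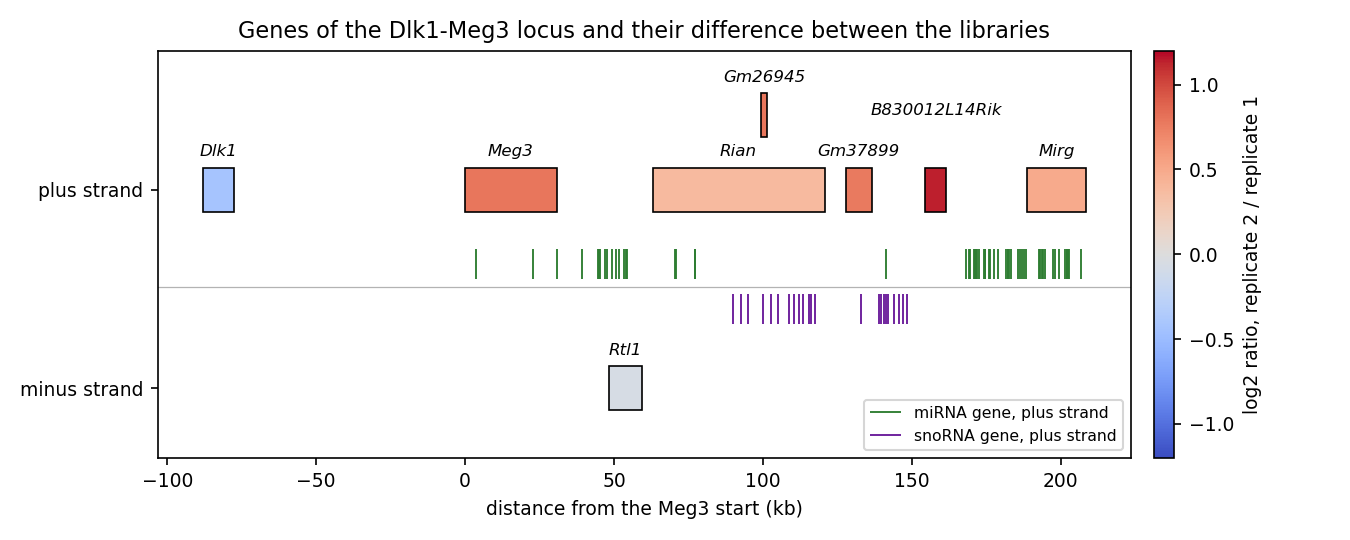
Map from Dlk1 to Mirg in kb from the Meg3 start, with gene boxes on their strand coloured by the log2 ratio of replicate 2 to replicate 1, and ticks for plus-strand miRNA (green) and snoRNA (purple) genes. The 6 plus-strand noncoding genes from Meg3 to Mirg are in red tones (0.38 to 1.14), Dlk1 is blue (-0.43) and Rtl1 near neutral (-0.06).

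Most Meg3 reads were assigned to a single isoform that keeps a long stretch most other isoforms lack. GENCODE lists 11 Meg3 isoforms, from 421 to 14548 bases, of which 2 are longer than 3000 bases: Meg3-206 (5971 bases) and Meg3-209 (14548 bases). Meg3-209 has 5 exons, and its last exon (chr12:109558640-109571726) is 13087 bases long. Of the bases of Meg3-209, 10705, or 73.6%, belong to no other isoform. It received 60981 of the Meg3 counts in replicate 1 and 83021 in replicate 2, which were 80.2% and 81.8% of the gene. Both long forms together had 81.4% and 82.8% of the counts. Per length the picture was more even, because a long RNA gives more reads per molecule: the long forms had 20.8% and 22.8% of Meg3 TPM, a mean of 21.8% ± 1.45 (SD, n = 2). The share of the long forms thus depended on the quantity, counts or TPM, far more than on the library.

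The isoform values also depended on the method. In the alignment-based tables the leading isoform by TPM was Meg3-203, of 457 bases, with 239 TPM in replicate 1 and 344 TPM in replicate 2, or 25.6% and 22.5% of Meg3. Meg3-209 followed with 187 and 341 TPM, in replicate 2 nearly the same. In the alignment-free tables Meg3-203 was listed at 0 in both libraries, and none of its bases are its own. Meg3-209 led there, with 253 and 460 TPM, or 29.6% and 30.9%. Meg3-206, listed at 6.42 and 9.38 TPM in the alignment-based tables, had 125 and 206 TPM in the alignment-free ones. The long forms accordingly made up 44.3% and 44.7% of Meg3 TPM in the alignment-free tables. Meg3-205, a 3-exon form of 1498 bases that begins at the upstream start, was high in both: it had 156 and 305 TPM (16.8% and 19.9%) by alignment and 199 and 388 TPM (23.3% and 26.0%) without. Meg3-202 (755 bases) had 155 and 237 TPM by alignment and 92.1 and 165 TPM without. Meg3-201 had 62.4 and 83.9 TPM by alignment, and Meg3-204 had 44.2 and 89.4 TPM. Meg3-207, a 10-exon form that joins the upstream start to the distal end and skips the long stretch, had 30.4 and 49.9 TPM by alignment, or 3.26% and 3.25% of the gene.

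The annotated 3′ ends differ between these forms, and the last 60 bases of a pair of them are printed with the polyadenylation signal letters AATAAA in capitals. Meg3-209 ends at chr12:109571726 and Meg3-205 at chr12:109545319.
Meg3-209: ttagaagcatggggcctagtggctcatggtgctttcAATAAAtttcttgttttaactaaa
Meg3-205: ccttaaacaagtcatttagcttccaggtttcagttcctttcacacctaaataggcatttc
Meg3-209, Meg3-207, Meg3-208 and Meg3-211 end within 7 bases of each other and share AATAAA, which begins 17 to 24 bases from their ends. The last 60 bases of the other 7 isoforms, Meg3-203 and Meg3-205 included, do not hold these letters. In the genome the last base of Meg3-205 is followed directly by a run of 20 A, visible in the downstream start window printed above.

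**Figure D3:**
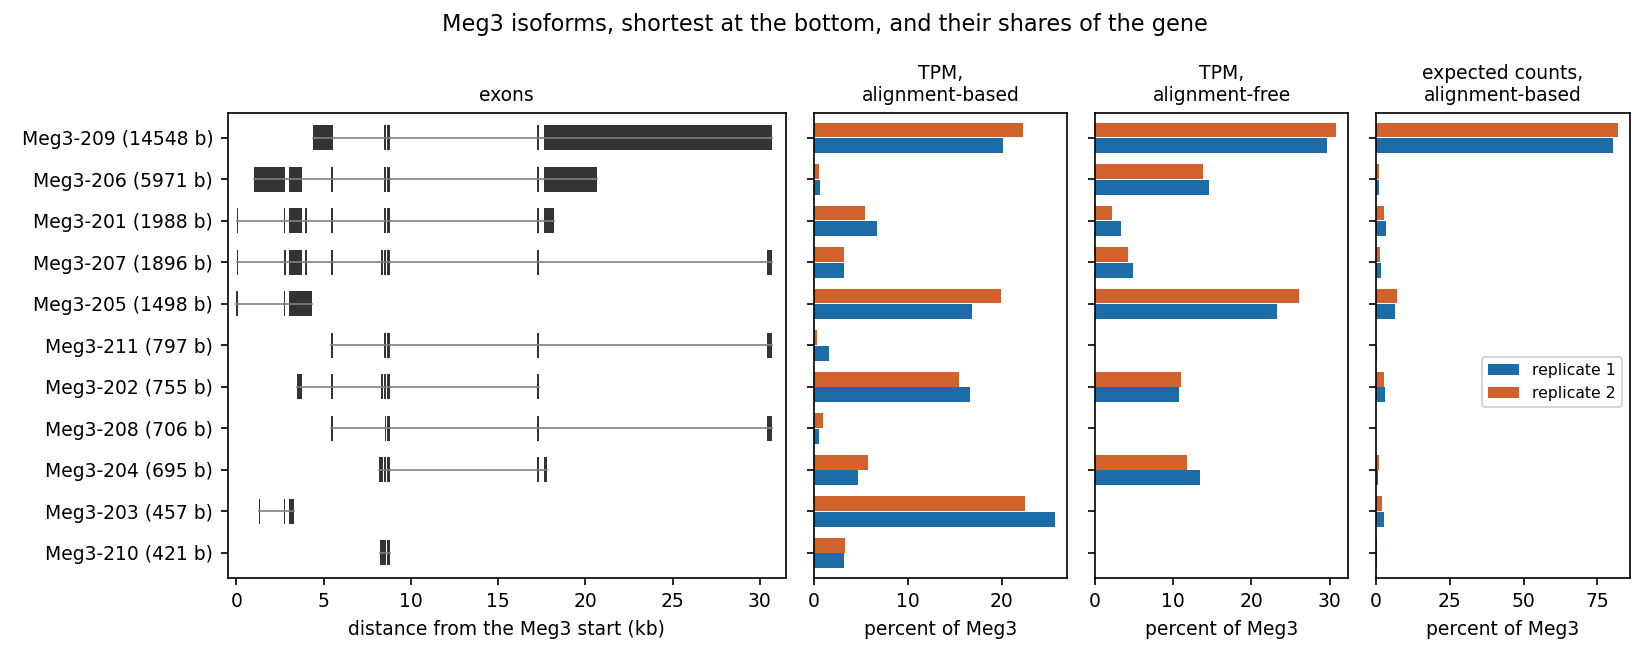
Left, exons of the 11 Meg3 isoforms in kb from the Meg3 start, shortest at the bottom; right, each isoform's percent of Meg3 by alignment-based TPM, alignment-free TPM and alignment-based expected counts, with blue for replicate 1 and orange for replicate 2. Meg3-209 holds 80.2% and 81.8% of the counts but 20.1% and 22.2% of the alignment-based TPM.

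Rian, Mirg and Dlk1 also consist of several forms. Rian-202, an 11-exon form of 2355 bases, led its gene in both methods, with 147 and 177 TPM by alignment (30.8% and 27.2% of Rian) and 199 and 248 TPM without. Rian-213 came next by alignment, with 87.7 and 108 TPM, or 18.3% and 16.6%. Rian-207 was listed at 0 by alignment and at 42.0 and 121 TPM without, so that minor Rian forms were not settled. Mirg-201, with 2 exons and 1906 bases, led Mirg by alignment in both libraries, with 14.7 and 20.9 TPM (29.0% and 27.8%). Mirg-203, a form at the proximal end of the gene, followed with 11.1 and 16.1 TPM. Mirg-207 had 10.3 and 13.3 TPM by alignment but 0.688 and 0 TPM without. Forms of 3000 bases or more, which span the miRNA hairpins of the gene, made up 21.5% and 20.8% of Mirg TPM. For Dlk1 the few counts did not fix the isoform: by alignment Dlk1-205 led in replicate 1 (48.0%) and Dlk1-206 in replicate 2 (64.6%), and without alignment Dlk1-201 led in both (31.2% and 42.3%). Rtl1 has a single annotated isoform.

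The small RNAs of the locus were nearly invisible to these libraries. The interval from Begain to Dio3 holds 69 annotated miRNA genes and 23 snoRNA genes. For 61 of the miRNA genes and all 23 snoRNA genes the deposited effective length was 0, so these entries could receive no value, and their 0 counts say nothing of the RNAs. Of the miRNA genes 5 had counts, few in each library: Mir433 (3 and 6), Mir1188 (8 and 15), Mir1197 (5 and 1), Mir1193 (1 and 0) and Gm27379 (0 and 1). Their effective lengths were 21 to 25 bases, so 1 count is a large TPM, and no TPM is given. What the tables do measure are the hosts. Mirg holds 14 miRNA genes on its strand, 9 overlapping an annotated exon and 5 in introns. Rian holds 13 snoRNA genes, of which 8 overlap an exon of Rian, and 4 miRNA genes, all in introns. Another 26 miRNA genes and 10 snoRNA genes lie on the plus strand between Rian and Mirg. Meg3 holds 2 miRNA genes, and the exon around Mir770 is an exon of 1 isoform only, the abundant Meg3-209.

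Mature sequences of miRNAs of Meg3 and Mirg and of the stretch before Mirg are printed from RefSeq (GRCm38.p6), seeds in capitals, to show which share a seed. miR-770-3p lies at chr12:109563744-109563765, miR-379-3p at chr12:109709102-109709123, miR-411-3p at chr12:109710225-109710246, miR-376b-5p at chr12:109723471-109723492, miR-376c-5p at chr12:109722733-109722754, miR-134-5p at chr12:109734145-109734166, miR-485-3p at chr12:109734946-109734967 and miR-410-3p at chr12:109743764-109743784, all on the plus strand.
miR-770-3p: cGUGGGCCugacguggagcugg
miR-379-3p: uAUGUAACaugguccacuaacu
miR-411-3p: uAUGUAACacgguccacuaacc
miR-376b-5p: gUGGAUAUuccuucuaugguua
miR-376c-5p: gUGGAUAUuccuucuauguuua
miR-134-5p: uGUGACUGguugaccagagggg
miR-485-3p: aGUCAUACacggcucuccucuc
miR-410-3p: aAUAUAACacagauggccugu
miR-379-3p and miR-411-3p have the seed AUGUAAC, and miR-376b-5p and miR-376c-5p have UGGAUAU. Over the interval RefSeq lists 113 distinct mature miRNAs (114 entries, since miR-3070-5p is listed at 2 hairpins) with 104 seeds, of which 9 seeds are shared, each by 2 miRNAs. Of the 69 GENCODE miRNA genes, 61 matched a RefSeq entry. miR-134, known for its action at dendritic spines, lies in an exon of Mirg, whose level is given above; the mature miRNAs were not measured.

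The libraries differed in the noncoding members. After scaling to a common library size, replicate 2 held 1.74 times as much Meg3 as replicate 1, a log2 ratio of 0.80. For Rian it was 0.38 and for Mirg 0.49. Dlk1 had -0.43 and Rtl1 -0.06. With 1 library on each side these ratios describe the libraries and have no replicate check. Counting error alone, as exact 95% binomial intervals, spans 0.78 to 0.81 for Meg3, 0.35 to 0.41 for Rian and 0.40 to 0.58 for Mirg. For Dlk1 it spans -0.88 to -0.01 and for Rtl1 -1.34 to 1.15, so the Rtl1 difference was not detectable at this depth. Of the 5 members, 1 (Meg3) was past 1.5-fold higher in replicate 2, where 10.7% of 18246 genes averaging at least 10 counts were, and none was past 1.5-fold lower, where 3.62% were. Dlk1 did pass 1.5-fold lower on TPM with a pseudocount of 0.1 (-0.63) and with centring on long noncoding genes (-0.65).

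All 6 plus-strand noncoding genes from Meg3 to Mirg were higher in replicate 2. Gm26945 (0.79), Gm37899 (0.77) and B830012L14Rik (1.14) were past 1.5-fold along with Meg3, so 4 of 6 were, with a median of 0.78. Among all long noncoding genes 25.2% were past 1.5-fold higher in replicate 2 and 4.93% lower, the median was 0.22, and 70.1% were higher. Among 1345 TEC genes, of which 1339 have a single exon, the median was 0.84 and 94.3% were higher. Across all genes the median was 0.00. Noncoding and TEC RNA as a class was thus higher in replicate 2, and its part in the difference of Meg3, Rian and Mirg was not tested. Of 33 cell type markers with a ratio, 9 were higher in replicate 2, none past 1.5-fold, and 4 were past 1.5-fold lower: Gfap of astrocytes (74.1 and 40.9 TPM, log2 ratio -0.90), Cldn5 of endothelium (-0.68), Kcnj8 of pericytes (-1.12) and Ttr of choroid plexus (-1.25). All 3 inhibitory neuron markers (summed level 282 and 238 TPM), all 3 of oligodendrocytes (452 and 391), all 3 of microglia (55.1 and 50.5) and all 3 of endothelium (45.8 and 36.8) were lower in replicate 2. The sums were 1732 and 1796 TPM for excitatory neurons, 2137 and 2074 for all neurons, 759 and 759 for astrocytes, 22.4 and 22.5 for pericytes, 10.2 and 11.9 for leptomeninges, 7.93 and 4.14 for choroid plexus, 2.04 and 3.03 for midbrain dopamine neurons and 0.44 and 1.49 for hypothalamus. The part of cell makeup in the difference of the members was not tested. With the median of long noncoding genes subtracted, a centring chosen after the data were seen, the log2 ratio of Meg3 was 0.58, just inside 1.5-fold. Of 5324 genes averaging at least 1000 counts, 0.695% were past 1.5-fold higher and 0.244% lower; of the 45 long noncoding ones among them, 17.8% were higher and 0 lower.

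Both spliced and unspliced models of the locus were mostly higher in replicate 2, the single-exon ones by more at the median; that gap was not tested. Among transcripts of these 6 genes averaging at least 10 counts, all 7 with a single exon were higher in replicate 2, with a median log2 ratio of 0.77. Of the 32 with several exons 30 were higher, with a median of 0.59. Past 1.5-fold higher were 5 of the 7 and 16 of the 32. Over all genes, 2312 of 4756 single-exon transcripts and 11914 of 47900 others were. Of all 52656 transcripts together, 27% were past it higher and 12.5% lower. Over all genes the medians were 0.56 for 4756 single-exon transcripts and 0.08 for 47900 others. Within Rian, the 11-exon Rian-202 went from 7500 to 6718 counts, a log2 ratio of 0.22 after scaling. The single-exon Rian-209 went from 1063 to 1546, a ratio of 0.92. The ranges of all such Rian forms overlapped. The 4 single-exon forms spanned 0.55 to 0.92 (median 0.72), and the 13 others -0.21 to 1.14 (median 0.48). Within Meg3 all 11 forms have several exons, and 10 were higher in replicate 2 (median 0.68). They spanned -1.33 for Meg3-211, the 1 that was lower, to 1.42 for Meg3-208, both with 5 exons. The ratios did not follow exon number: the 3-exon Meg3-205 (4931 and 7190 counts) had 0.92 and the 3-exon Meg3-203 had 0.49. The 10-exon Meg3-207 (1230 and 1511 counts) lay between them at 0.68. Transcript counts are estimates from reads that isoforms share.

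**Figure D4:**
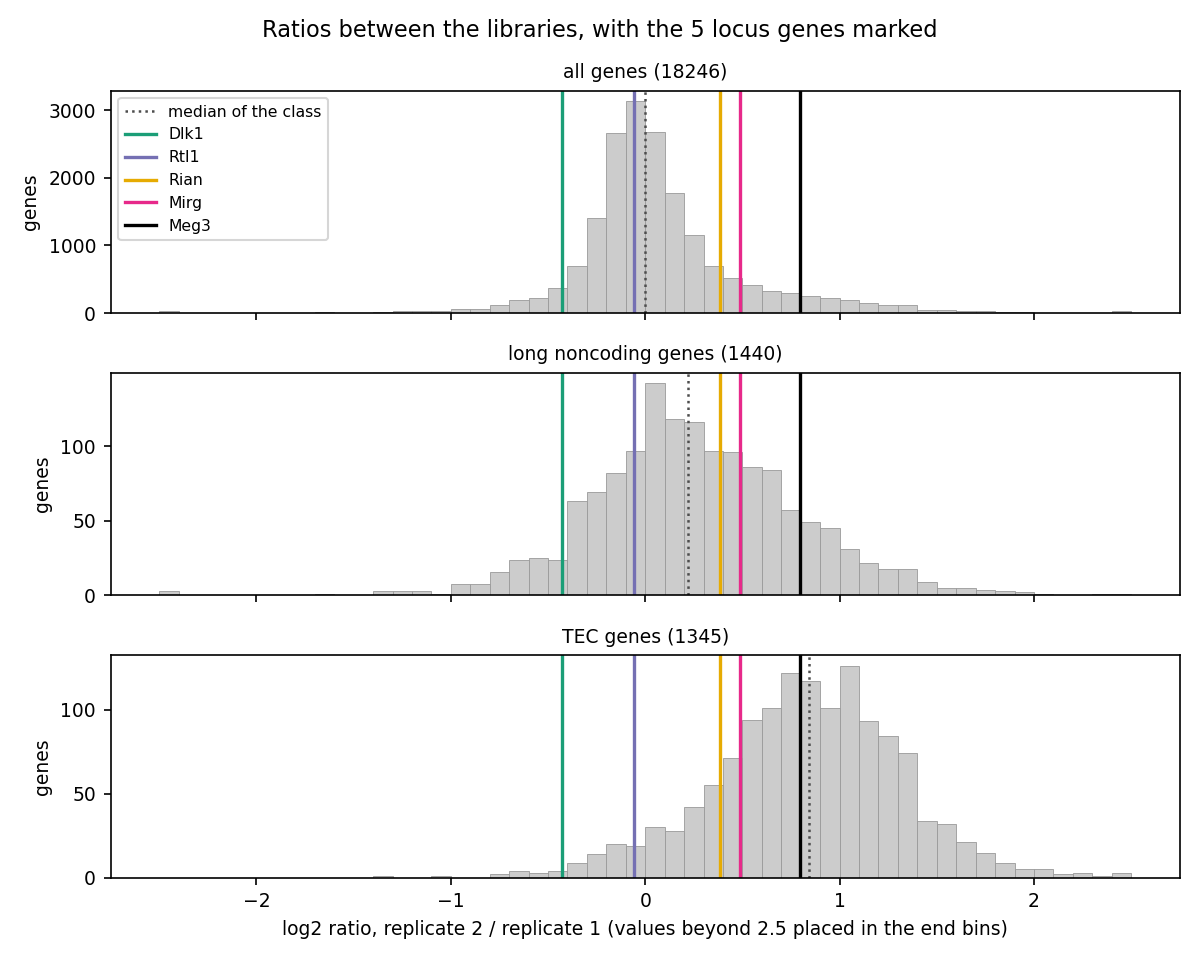
Number of genes by log2 ratio of replicate 2 to replicate 1, for all genes (18246), long noncoding genes (1440) and TEC genes (1345), with a coloured line for each of the 5 locus genes and a dotted line at the median of the class. Meg3 at 0.80 lies in the right tail of all genes and next to the median of TEC genes, 0.84.

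Most listed genes of the machinery that acts on this locus were expressed in the same libraries. Of 22 genes known to set or keep its imprint, 18 reached 1 TPM in both libraries, where 26.7% of all 55536 genes did, and the median over the list was 18.1 ± 1.89 TPM. They included Trim28, the corepressor of KRAB zinc finger proteins, at 88.1 and 102 TPM, and its partner Zfp445 at 75.6 and 84.4 TPM. Zfp57, the zinc finger protein that binds the methylated imprint, was lower, at 5.24 and 6.73 TPM. The germline and early embryo factors Dnmt3l (2 and 0 counts) and Dppa3 (0 counts in both) were at or below the floor. Dnmt3b (17 and 11 counts, 0.20 and 0.31 TPM) and Uhrf1 (12 and 10 counts, 0.15 and 0.32 TPM) also stayed below 1 TPM. All 14 genes of small RNA processing reached 1 TPM, against the same 26.7% of all genes, with a median of 22.9 ± 1.47 TPM; Drosha, which cuts miRNA hairpins from their hosts, had 38.7 and 38.9 TPM, and the snoRNA-binding protein gene Nop56 had 48.7 and 57.8 TPM. Of the 20 imprint genes and 14 processing genes with enough counts for a ratio, 0 were past 1.5-fold in either direction. Of all 18246 genes with a ratio, 10.7% were past it higher in replicate 2 and 3.62% lower. Of genes averaging at least 1000 counts, 0.695% were higher and 0.244% lower. The median log2 ratios of the imprint and processing genes were 0.03 and 0.09.

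Most listed Notch pathway genes stood above Dlk1, and most listed retrotransposon-derived genes stood above Rtl1. The Notch list is of a pathway and not of relatives of Dlk1 alone. Of all genes 26.7% reached 1 TPM in both libraries, and 7.45% of long noncoding genes did, the background for the counts that follow. Of genes averaging at least 10 counts, 10.7% were past 1.5-fold higher in replicate 2 and 3.62% lower. Of 21 Notch pathway genes 19 reached 1 TPM, at a median of 8.16 ± 1.29 TPM. Dlk2, the closest relative of Dlk1, had 28.1 and 35.9 TPM, and Dner, a neuronal member of the family, had 59.8 and 58.3 TPM. Notch4 alone was past 1.5-fold (log2 ratio 0.73). Of 13 matched retrotransposon-derived genes 10 reached 1 TPM, with Arc at 138 and 177 TPM and Rtl8a at 145 and 136 TPM, against 0.11 and 0.10 TPM for Rtl1. Pnma1 (-0.73) and Ldoc1 (-0.66) were past 1.5-fold lower in replicate 2. The members were set beside imprinted genes at other loci as well. Of 35 of these, 30 reached 1 TPM, with a median of 17.9 ± 0.156 TPM and a median log2 ratio of -0.04, and 12 of 32 were higher in replicate 2. Past 1.5-fold were the long noncoding Kcnq1ot1 (0.83) and Zim1 (0.71) upward and Igf2 (-0.75) downward. Of 14 matched genes of the list of nuclear long noncoding RNAs, 12 were higher in replicate 2, with a median log2 ratio of 0.29. Kcnq1ot1, Snhg11 (0.68, of class protein coding in GENCODE M21) and Miat (0.62) were past 1.5-fold, and Malat1 had 0.52. These values lay near those of all 1440 long noncoding genes with a ratio. Of those, 70.1% were higher and 25.2% past 1.5-fold higher, with a median of 0.22.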

How the data were processed

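Per the text deposited with each library, values refer to mm10 and GENCODE M21; which aligner and quantifiers were run is not given in the sources used here. The headers say that gene and alignment-based transcript tables hold expected counts, TPM, posterior mean TPM, bounds of a TPM interval (a signal on the TPM scale whose level is not given) and, as a percent, each isoform's part of its gene, all deposited by the authors. Estimated counts and TPM of the alignment-free tables, named so per the file headers, were summed to genes. Percent shares were recomputed from the deposited TPM. Genes were joined on gene identifiers; all 55536 matched GENCODE M21, the source of coordinates and classes. Entries that are not genes, 0.452% and 0.406% of the counts, were left out of library sizes. The values carry no molecular identifiers, so intervals cover counting error alone.

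With 1 group and no contrast no test was made. For the ratio between the libraries, expected counts were rounded, genes averaging 10 counts or more kept, counts scaled with edgeR 4.0.16 (TMM), and log2 CPM taken with a prior count of 2. Single transcripts were rescaled with a prior of 0.5. On simulated counts the ratio step was tested with known changes. Expressed means 1 TPM in both libraries, and different means past 1.5-fold. Alternatives covered DESeq2 1.42.0 size factors, other filters, folds, pseudocounts, length limits and the alignment-free tables.

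The members, the 6 gene lists and 13 marker lists were chosen with earlier results of these data known. Genes named are the members, annotated genes of the interval, isoforms with 5% of a gene, and from each list up to 4 of the highest and 3 undetected. Zfp57, Dnmt3b, Uhrf1, Rian-209, Rian-207 and those past 1.5-fold in a list were added after their values were seen. Norad and Zcchc16 were not matched. Sequences are from RefSeq and GENCODE M21.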

Additional observations from a re-analysis of the deposited data

How the results depend on the processing

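No paired analysis was possible because there is 1 group. The ratios of Rian, Mirg and Rtl1 kept their direction and stayed inside 1.5-fold under all 8 alternatives, from 0.16 to 0.44, 0.27 to 0.56 and -0.28 to -0.01. Meg3 ranged from 0.58 (centred on long noncoding genes, inside 1.5-fold) to 0.80. Dlk1 passed 1.5-fold lower with TPM and a pseudocount of 0.1 (-0.63) and with that centring (-0.65). Mean levels moved beyond their SD in the alignment-free tables, to 2.56 TPM for Dlk1, 0.152 for Rtl1, 1026 for Rian and 102 for Mirg. Meg3 stayed within its SD at 1171 TPM (0.951 times), but the median gene at 1 TPM or more had 1.61 times its gene-table TPM there. Relative to that gene Meg3 was therefore lower. With posterior means Dlk1 moved to 2.29 TPM. The cause of these shifts was not tested. Leaving out each library gave 1.27 to 2.02 TPM for Dlk1, 931 to 1532 for Meg3, 0.10 to 0.11 for Rtl1, 479 to 648 for Rian and 50.9 to 75.1 for Mirg, and no ratio. The long forms' share of Meg3 was 44.5% in alignment-free TPM and 82.1% in expected counts, 20.8% to 22.8% without a library, and the same at 2000 and 5000 bases. Of 18 alternatives for list medians 12 stayed within the SD, the 6 others being alignment-free, and all 12 for expressed counts stayed within 1.5 times. Genes past the fold, 1958 higher and 660 lower in replicate 2, were 813 and 184 at 2-fold, 5147 and 2187 with no filter, 364 and 107 with a mean of 100 counts, and 37 and 13 with 1000 (fewer genes tested). Depth limits Rtl1, Dlk1 isoforms and Dio3; 2 libraries limit each spread.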
